A study of Mus musculus with 12 samples.

Results

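The genes described here were 32 transcripts of microglia and other macrophages, chosen by symbol from the 24421 entries of the gene table. All 32 were in the table. They comprised 9 genes of homeostatic microglia, the 3 chains of complement C1q, 4 genes of Trem2 and Fc receptor signalling, 6 myeloid or leukocyte surface genes, 2 lysosomal genes, 2 myeloid transcription factors, 3 genes associated with macrophages at the borders of the brain and 3 genes of MHC class II antigen presentation. The cells were GFP-positive cells sorted by flow cytometry from the dissociated cerebellum of Aldh1l1-GFP mice, in which the regulatory region of the astrocyte gene Aldh1l1 drives GFP. The groups were postnatal days P1, P7, P14 and P28, with 3 libraries per time point and 12 in all, made from RNA of untreated male and female reporter mice on a C57BL/6J background. The methods of the study give total RNA as the input of the libraries. The labels do not state whether the 3 libraries of an age came from separate animals or from pools, so that p-values measure the spread between these libraries, which may be technical.

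Microglia are the resident macrophages of brain tissue, seeded from the embryonic yolk sac. They depend on signalling through the receptor CSF1R and in the healthy brain express purinergic and chemokine receptors such as P2RY12 and CX3CR1. Border macrophages of the meninges, vessels and choroid plexus express the mannose receptor Mrc1, and MHC class II genes mark cells that present antigen to CD4+ T cells. A gate on astrocyte GFP is not meant to collect any of these cells.

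In brief, the set did not follow a single time course. P2ry12 rose from P1 to P7 and again to P14, and its libraries of P14 and P28 overlapped. Cd74 rose at P14 and fell at P28, H2-Aa was highest at P14, and Mrc1 fell from P7 to P14. At P28 the 3 libraries carried different members, and the spread between them was wide. In such bulk libraries fewer cells of a type and less RNA per cell cannot be told apart.

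Promoter letters are shown first for the 3 members with contrasting time courses, namely P2ry12 (rising), Mrc1 (falling) and H2-Aa (highest at P14). Each sequence is the 250 bases before the RefSeq start (build GRCm38.p6), written 5′ to 3′ on the strand of the gene. Capitals mark AGCAAC, the core letters of an X box, in P2ry12, and CCAAT, those of a Y box, read on the opposite strand as ATTGG in Mrc1 and H2-Aa. The first lies on chr3:59262986-59263235, minus strand, the second on chr2:14229164-14229413, plus strand, and the third on chr17:34287824-34288073, minus strand.
P2ry12: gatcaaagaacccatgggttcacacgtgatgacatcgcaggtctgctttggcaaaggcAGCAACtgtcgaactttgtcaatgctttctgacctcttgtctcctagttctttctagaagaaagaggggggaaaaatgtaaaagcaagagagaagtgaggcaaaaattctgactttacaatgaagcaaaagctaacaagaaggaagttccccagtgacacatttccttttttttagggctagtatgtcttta
Mrc1: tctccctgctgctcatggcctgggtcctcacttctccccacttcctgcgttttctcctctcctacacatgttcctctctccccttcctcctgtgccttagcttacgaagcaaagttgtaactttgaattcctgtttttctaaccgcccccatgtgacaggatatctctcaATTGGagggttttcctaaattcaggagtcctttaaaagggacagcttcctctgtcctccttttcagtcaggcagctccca
H2-Aa: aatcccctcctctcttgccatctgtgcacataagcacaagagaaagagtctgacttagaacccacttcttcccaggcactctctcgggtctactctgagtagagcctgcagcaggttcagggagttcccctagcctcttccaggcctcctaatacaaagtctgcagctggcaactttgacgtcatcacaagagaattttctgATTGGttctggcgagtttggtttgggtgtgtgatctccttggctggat

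The match in P2ry12 began 192 bases before the start, that in Mrc1 80 and that in H2-Aa 48. X and Y boxes are elements of MHC class II promoters, and the search used only these short letter strings on both strands. An exact string can miss a variant of a box. The lack of AGCAAC in H2-Aa therefore does not show that it has no X box, nor does a match in P2ry12 show that it has one. RefSeq windows of 300 bases (250 before to 50 after the start) were held for 24 of the 32 members. CCAAT was found in 13 of these 24 members, P2ry12, Mrc1 and H2-Aa among them, against 37.4% of all 32851 windows. AGCAAC was found in 4 (Cd53, Cd68, P2ry12 and Trem2) against 14.8%. The letters GAGGAAGT, a form of the site of the macrophage factor PU.1 (encoded by Spi1), were found in C1qc, Cd53, Ctss and Pf4 against 3.20% of all windows. The composite ETS-IRF element, bound by PU.1 together with IRF8, was found in Cd68 against 2.72% of windows. The PU.1 letters of Cd53 and Ctss lay at or after the start. Those of C1qc (chr4:136893082-136893129, minus strand) and Pf4 (chr5:90772405-90772434, plus strand) lay before it and are shown in capitals, read on the opposite strand, in the bases around them.
C1qc: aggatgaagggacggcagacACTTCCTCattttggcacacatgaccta
Pf4: tgtcattgcttctgcagagcACTTCCTCat

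These letters describe the windows, and a relation to the time courses was not tested.

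Values below are normalized counts, that is, reads per gene divided by a size factor for each library. The reads recovered from them summed to between 6399499 and 14733985 per library, and 1 read was worth 0.615 to 1.46 normalized counts. A library at 0 allows up to 3 reads, which at P28 is 3.54 to 4.38 normalized counts, counting error only. Changes are log2 fold changes with their standard error from limma on log2(normalized count + 1), a scale that understates the change of low genes, with Benjamini-Hochberg adjustment over the 15464 genes that reached 10 normalized counts in 3 or more libraries. A gene was called when its adjusted p was under 0.05. The 32 members all passed that filter, 31 also without the P14 libraries (the exception was H2-Aa) and all but Aif1 without those of P7, and 14 had 10 or more reads in every library. At least 1 library was at 0 for 8 members.

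The sorted label was checked against 10 astrocyte genes, among them Aldh1l1, Slc1a3 and Aldoc, which had reads in every library. Their summed level per kilobase of exon was 2.05 to 59.2 times that of the 32 members. On average the ratio was 8.48 ± 3.81 (SD, n = 3) for P1, 3.29 ± 1.21 for P7, 10.8 ± 4.38 for P14 and 43.2 ± 14.7 for P28. The astrocyte genes themselves moved with age, so the ratio is no measure of purity. Aldh1l1, the gene of the reporter, averaged 5008, 1470, 1879 and 2921 normalized counts at P1, P7, P14 and P28. Between P1 and P28 it was called lower, whereas the 9 others were called higher. The 32 members made up 0.0438% to 0.159% of the summed level per kilobase of all genes tested (P28 replicate 3 lowest and P14 replicate 3 highest). Genes of other cells also moved with age: the summed level of 7 oligodendrocyte genes was between 54218 and 58302 at P14, between 15289 and 20796 at P28 and between 361 and 570 at P1. That of 10 endothelial genes was 184 to 874 for P1, 372 to 2469 for P7, 1298 to 1708 for P14 and 770 to 922 for P28, so that its P28 sums, too, lay below all those of P14, and that of 6 choroid plexus genes ran from 815 to 91679 within P14. Of 9 lymphocyte genes only 1 passed the filter, and of the monocyte and neutrophil genes the highest values were 175 normalized counts for Ly6c2 and 139 for Mpo, both at P14. The part of these genes in the results below was not tested.

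**Figure D1:**
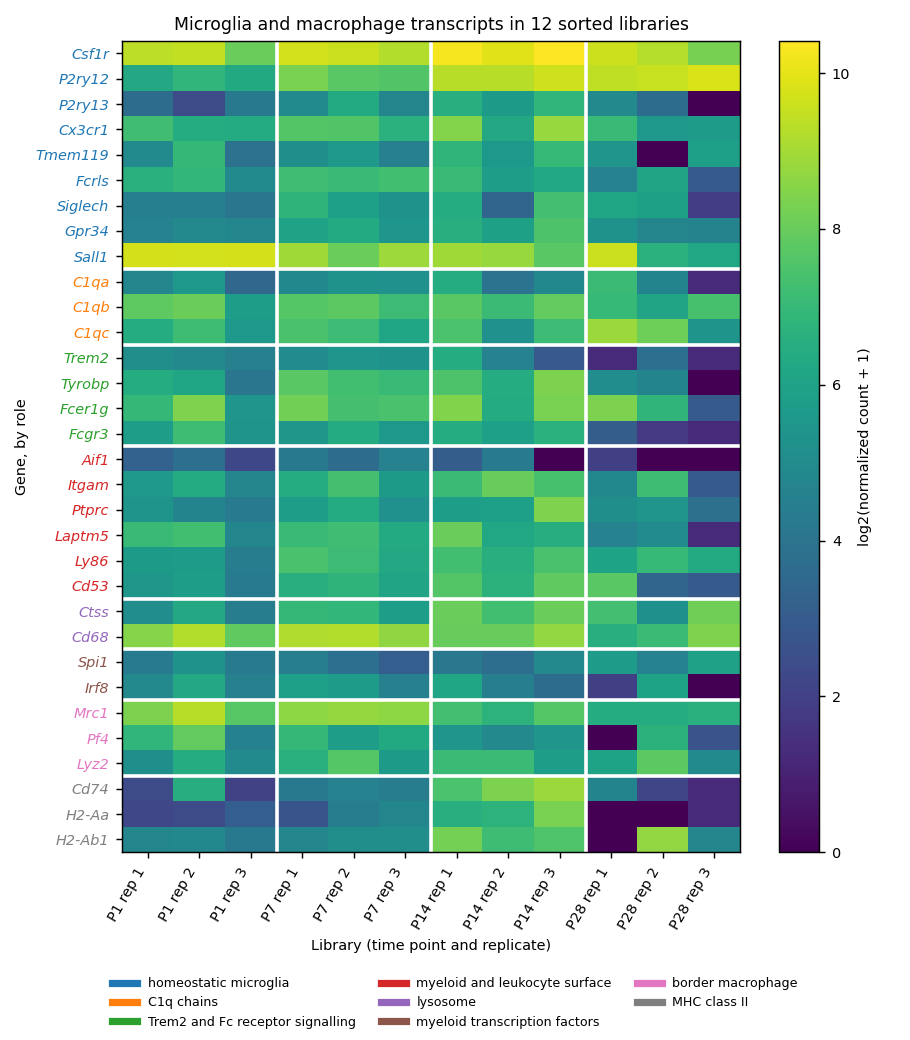
Heat map of log2(normalized count + 1) for the 32 genes (rows, coloured and grouped by role) in the 12 libraries (columns, grouped by age). P2ry12 brightens from P1 to P14 and stays bright at P28, whereas many other rows hold their darkest cells, including 8 genes with a library at 0, among the P28 libraries or, for Aif1, also in P14 replicate 3.

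By mean, 20 of the 32 members were highest at P14, 6 at P7, 4 at P28 and 2 at P1. The lowest mean was at P28 for 17 members and at P1 for 14. From P1 to P7, 1 member was called, P2ry12, which rose. That is 3.13% of the members, against 7.70% of all genes tested that were called in either direction and 3.47% called higher (4.24% were called lower). From P7 to P14, 4 were called (12.5%, against 20.9% of all genes), with 3 higher (10.8% of all genes) and 1 lower (10.0%). From P14 to P28, 6 were called, all lower (18.8%, against 8.76% of all genes called lower and 5.68% called higher). Between P1 and P28, 6 were called (18.8%, against 34.6% of all genes), with 1 higher (14.6%) and 5 lower (20.0%). H2-Aa, which was tested only because of its P14 values, is 1 of the 3 higher from P7 to P14 and 1 of the 6 lower from P14 to P28. Successive comparisons share the libraries of an age, so the calls of 1 step are not independent of those of the next.

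Medians of the log2 fold change over the members were 0.67, 0.12, -1.78 and -0.59 in these 4 comparisons, beside 0.04, -0.09, -0.12 and -0.24 over all genes tested. In the first step 27 members had a positive change, and the libraries of P1 and P7 did not overlap for 8 of them (20.1% of all genes were higher without overlap), while Sall1 was lower without overlap (18.2% of all genes). In the second step 6 members were higher without overlap (21.3% of all genes) and 3 lower (24.8%). In the last step 29 of 32 were negative, 10 were lower without overlap (14.5% of all genes) and 0 higher (11.7%). Between P1 and P28, 2 were higher without overlap (17.9%) and 6 lower (24.0%).

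**Figure D2:**
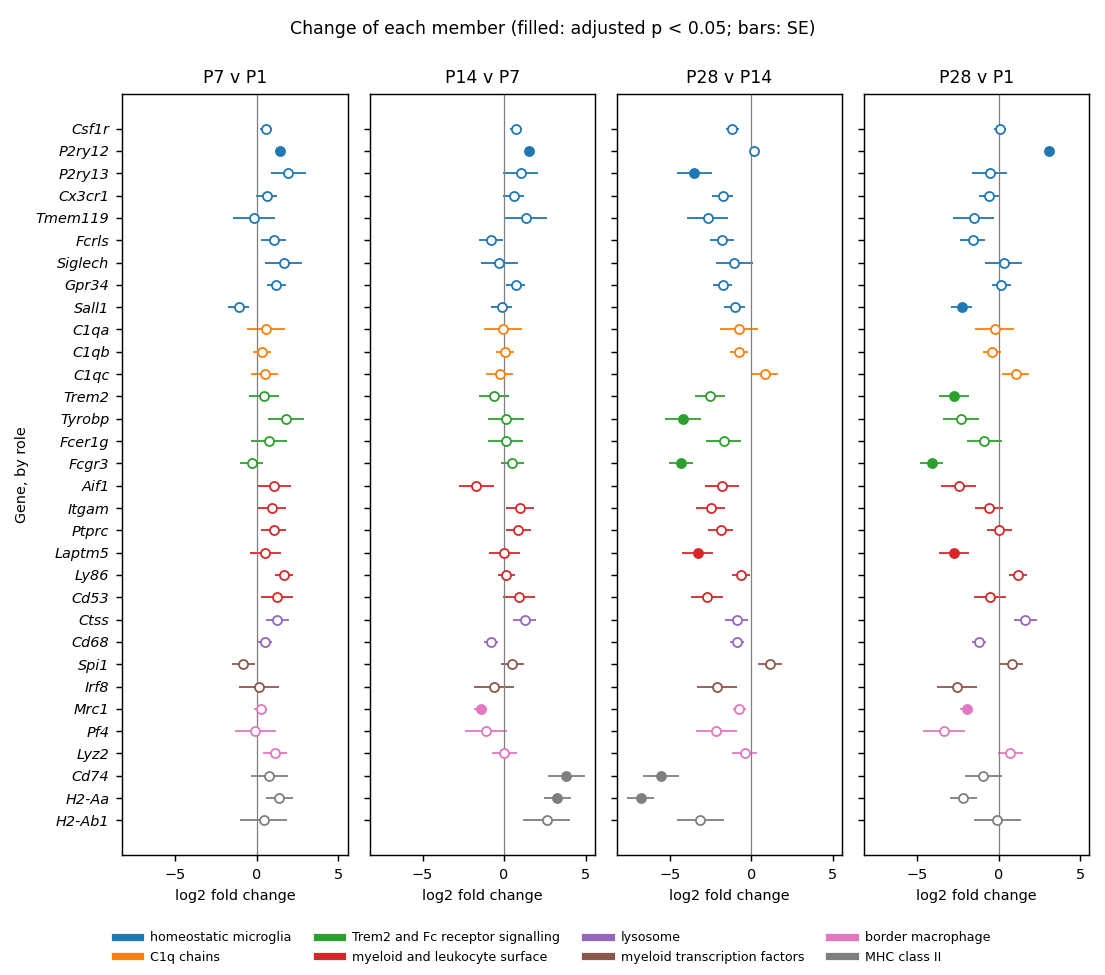
Log2 fold change (horizontal axis) of each of the 32 genes (rows, coloured by role) between ages, with its standard error; filled points had an adjusted p under 0.05. Filled points are P2ry12 alone in the first step, P2ry12, Cd74, H2-Aa and Mrc1 in the second, 6 genes left of 0 in the third and 6 genes between P1 and P28, of which P2ry12 lies right of 0.

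P2ry12, the ADP receptor by which resting microglia sense injury, had 76.9, 115 and 78.8 normalized counts in the 3 libraries of P1 and 322, 217 and 191 in those of P7. It had 634, 632 and 812 at P14 and 693, 742 and 901 at P28. The 3 ages up to P14 did not overlap, and those of P14 and P28 did. The change was 1.41 ± 0.28 (SE) in the step to P7 (limma adjusted p = 0.00598), 1.53 ± 0.28 in that to P14 (0.00132) and 0.17 ± 0.28 in that to P28 (0.730). Under scaling by library totals the last value was -0.07. Between P1 and P28 the mean was 8.63-fold higher (3.11 ± 0.28, adjusted p = 1.58e-06). The call of a rise held with each library left out in turn in the first step (adjusted p 0.00488 to 0.0410), in the second (0.00104 to 0.0104) and between P1 and P28 (2.66e-06 to 1.84e-05).

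P2ry12 lies on chromosome 3, 59216272 to 59262871 (minus strand, GRCm38), inside Med12l, which is on the opposite strand. They share 9 exonic bases, and the sources used here do not state whether counting used strand. Med12l averaged 1385, 1037, 846 and 1103 normalized counts at P1, P7, P14 and P28. Its changes were -0.43 ± 0.18, -0.28 ± 0.18 and 0.38 ± 0.18 in the 3 steps, so its mean was lower at P7 and at P14 than at the age before.

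The P2ry13 gene, for a related ADP receptor that also lies inside Med12l, had 11.7, 4.29 and 17.4 normalized counts at P1 and 29.5, 81.1 and 25.6 at P7. It had 93.2, 49.7 and 114 at P14 and 29.2, 11.8 and 0 at P28, so the libraries of P14 and P28 did not overlap. Its log2 change over that step was -3.49 ± 1.07, a fall (limma adjusted p = 0.0427). That call was lost in 9 of the 12 fits that left out 1 library: P1 replicate 1 (0.0602) or 3 (0.0550), any of P7 (0.0530 to 0.0615), any of P14 (0.0667 to 0.128) or P28 replicate 3 (0.0979). It was also lost in edgeR, with no filter on low values, with a pseudocount of 0.1, with the replicate number as a block and with only the 2 ages compared. Per kilobase of exon the neighbouring ADP receptor genes stood at 306 ± 42.7 (P2ry12) and 5.41 ± 5.82 (P2ry13) at P28, and the difference between their changes was not tested.

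Csf1r, the receptor on which microglial survival depends, had 669, 700 and 259 normalized counts at P1, 839, 760 and 595 at P7, 1242, 999 and 1365 at P14 and 794, 612 and 306 at P28. P14 was above both neighbouring ages without overlap, but neither step passed the test (0.72 ± 0.38, adjusted p = 0.217, and -1.17 ± 0.38, adjusted p = 0.0543). The fall from P14 to P28 passed when P1 replicate 3 (0.0235) or P28 replicate 1 (0.0260) was left out, and in DESeq2. Csf1r shares 873 exonic bases with Hmgxb3 on the opposite strand, which averaged 321 to 461 normalized counts over the ages.

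Sall1, a transcription factor of microglial identity that neural progenitors express as well, had 861, 844 and 858 normalized counts at P1. It had 493, 266 and 470 at P7, 490, 450 and 212 at P14 and 760, 99.1 and 74.4 at P28. The P1 libraries were above all others without overlap, and P28 replicate 1 lay far above the other libraries of its age. Between P1 and P28 it fell by 2.26 ± 0.64 (limma adjusted p = 0.0144). The call was lost without P28 replicate 2 (0.0548) or 3 (0.0574), in edgeR and DESeq2 and with only the 2 ages compared. Sall1 and P2ry12 thus moved in opposite directions over the series.

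The other homeostatic genes were called in no comparison. Cx3cr1, the fractalkine receptor, averaged 105 ± 35.8 (SD, n = 3), 161 ± 53.6, 293 ± 192 and 75.8 ± 47.1 normalized counts at P1, P7, P14 and P28, and Gpr34, a lysophosphatidylserine receptor, 26.2 ± 2.62, 62.9 ± 19.5, 112 ± 63.0 and 29.9 ± 8.30. Their changes from P14 to P28 were -1.76 ± 0.63 (adjusted p = 0.0769) and -1.76 ± 0.58 (0.0579), and both passed without P14 replicate 2 (0.0136 and 0.0470), without P28 replicate 1 (0.0341 and 0.0385), in edgeR and in DESeq2. Gpr34 lies inside Cask on the opposite strand, which averaged 1989 to 3185 normalized counts.

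Tmem119, a surface protein restricted to microglia within the brain, had 42.4, 0 and 58.1 normalized counts at P28 and a mean of 94.6 ± 42.1 at P14. Fcrls, an Fc receptor-like gene of mouse microglia, was highest at P7 (144 ± 12.9) and lowest at P28 (32.5 ± 31.2). Siglech, a sialic acid-binding lectin also of plasmacytoid dendritic cells, ran from 9.52 to 159 within P14 and from 2.70 to 71.6 within P28. None of these 3 passed the test in any comparison of the 12 libraries, and their largest absolute change was that of Tmem119 from P14 to P28 (-2.68 ± 1.26, adjusted p = 0.169).

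**Figure D3:**
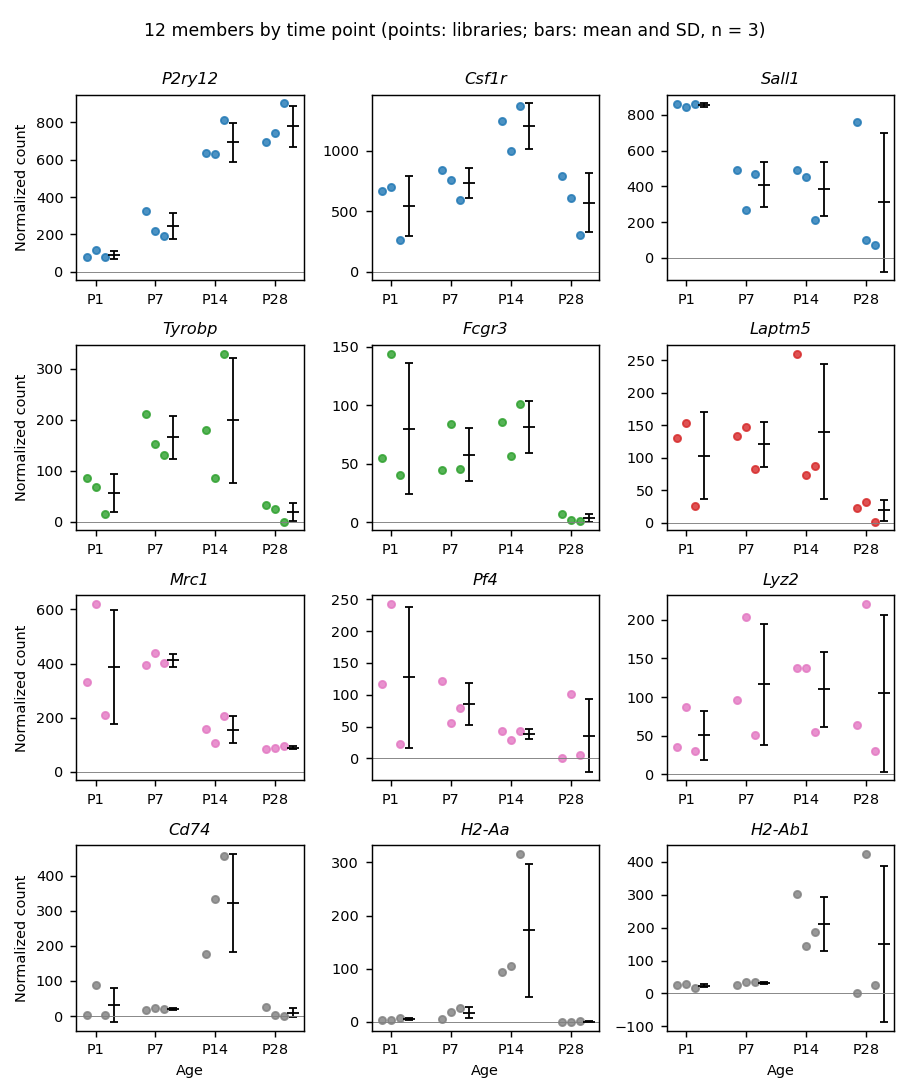
Normalized counts of 12 genes by age, with 1 point per library and the mean with SD (n = 3) beside the points; each panel has its own linear scale. P2ry12 steps up to P14 and holds, Mrc1 steps down at P14, Cd74, H2-Aa and H2-Ab1 are higher at P14 than at P7 in every library, and at P28 Sall1, Pf4, Lyz2 and H2-Ab1 each have 1 library far above the others.

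The C1q chains, which form the recognition unit that starts the classical complement pathway and which tags synapses for removal, were called in no comparison. C1qb was nearly level at 182 ± 112, 187 ± 42.5, 197 ± 53.6 and 120 ± 50.4 normalized counts at P1, P7, P14 and P28. C1qa averaged 27.3, 35.0, 42.9 and 54.0, and C1qc 92.6, 126, 118 and 258. At P28 the chains did not keep 1 ratio to each other: C1qa, C1qb and C1qc had 136, 124 and 460 normalized counts in replicate 1, 24.8, 67.2 and 274 in replicate 2 and 1.35, 168 and 40.6 in replicate 3. Per kilobase of exon as well, C1qc was the highest chain in replicates 1 and 2 (238 and 142) and C1qb in replicate 3 (154).

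In the Trem2 and Fc receptor group all 4 members were highest at P14 by mean and lowest at P28. Fcgr3, a low-affinity IgG receptor, had 55.4, 144 and 40.9 normalized counts at P1, 44.6, 83.8 and 45.7 at P7 and 85.8, 57.1 and 101 at P14. It had 7.31, 2.36 and 1.35 at P28, below every library of the other ages. The mean fell 22.1-fold from P14 to P28 (-4.31 ± 0.71, limma adjusted p = 0.00192) and was 21.8-fold below that of P1 (-4.12 ± 0.71, 0.000501). These calls held with each library left out (highest adjusted p 0.0111 and 0.00418) and in both count tests. Reads shared with related Fc receptor genes may be split between them.

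Tyrobp (DAP12), the signalling adaptor of TREM2, had 86.7, 68.6 and 15.9 normalized counts at P1, 213, 153 and 132 at P7, 181, 86.7 and 330 at P14 and 33.6, 24.8 and 0 at P28. It fell by 4.18 ± 1.10 from P14 to P28 (limma adjusted p = 0.0220), without overlap, and lost that call without P14 replicate 1 (0.0643) or 3 (0.0923). Its partner Trem2, a lipid receptor of microglia, had 34.5, 28.6 and 22.0 at P1, and 1, 11 and 1 reads in the P28 libraries (5.26 ± 6.68 normalized counts). Trem2 was lower at P28 than at P1 (-2.74 ± 0.94, adjusted p = 0.0359), a call lost in 7 of 12 fits with 1 library left out: any of P1 (0.0688 to 0.105), P7 replicate 1 (0.0515) or 3 (0.0518) and P28 replicate 1 (0.0852) or 3 (0.0879). It was lost in edgeR, with no filter on low values, with a pseudocount of 10 and with only the 2 ages compared, and kept in DESeq2. At P14 it ran from 6.52 to 86.8. Fcer1g, the common gamma chain of Fc receptors, averaged 165 ± 151, 206 ± 71.7, 251 ± 145 and 148 ± 163 at the 4 ages. It had 326, 111 and 6.76 at P28 and was not called.

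Among the surface genes only Laptm5, a lysosomal membrane protein of blood cells, was called. It had 131, 153 and 26.5 normalized counts at P1, 133, 148 and 82.2 at P7, 261, 73.0 and 88.0 at P14 and 23.4, 31.8 and 1.35 at P28. It fell by 3.28 ± 0.95 from P14 to P28 (limma adjusted p = 0.0329) and was lower at P28 than at P1 (-2.74 ± 0.95, 0.0371), where the libraries overlapped. The first call was lost without any 1 of the P14 libraries (0.0530 to 0.129) or P28 replicate 3 (0.0760), the second without P1 replicate 1 (0.129) or 2 (0.132), P7 replicate 1 (0.0517) or P28 replicate 3 (0.125).

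Ly86, which forms a complex with a relative of the Toll-like receptors, had 49.8, 53.6 and 19.7 normalized counts at P1 and 172, 139 and 76.0 at P7. Its rise of 1.67 ± 0.54 missed the threshold (adjusted p = 0.0822) although the libraries did not overlap, and passed it in DESeq2. The tetraspanin gene Cd53 averaged 39.6, 89.0, 176 and 77.0 at the 4 ages, and at P28 had 215, 9.44 and 6.76. Itgam, the CD11b integrin chain, averaged 52.9, 99.6, 185 and 59.1, with 143 of its P28 counts in replicate 2 and 6.76 in replicate 3. Ptprc, which encodes the leukocyte antigen CD45, had 56.1, 57.1 and 334 at P14, and was between 13.5 and 85.1 in the 9 other libraries. The Aif1 gene, for the microglial stain IBA1, was low throughout, with 25 reads in all at P14 and 2 at P28 (ratio of normalized levels 10.1, 95% counting interval 2.52 to 88.0), and was not called.

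Of the lysosomal pair, Cd68, the macrophage scavenger receptor macrosialin, had the highest mean level per kilobase of exon of all 32 members over the 12 libraries, at 316 ± 144, 420 ± 78.0, 245 ± 76.1 and 150 ± 106 at P1, P7, P14 and P28. Its change from P1 to P28 was -1.20 ± 0.45 (adjusted p = 0.0523), and passed without P1 replicate 3 (0.0332) or P28 replicate 3 (0.00382). Ctss, the protease cathepsin S that trims the MHC class II chaperone, had 33.8, 77.2 and 20.4 normalized counts at P1, 120, 119 and 54.3 at P7, 262, 154 and 271 at P14 and 156, 36.6 and 288 at P28. Every P14 library was above every P7 library, but the change of 1.26 ± 0.71 was not called (adjusted p = 0.243). From P1 to P28 its change was 1.62 ± 0.71 (0.0884), called in both count tests and without P28 replicate 2 (0.00636).

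Neither transcription factor was called. Spi1, which encodes the myeloid master regulator PU.1, averaged 25.5 ± 12.5, 13.8 ± 6.51, 19.7 ± 8.64 and 45.2 ± 19.3 normalized counts and was 1 of 3 members with a positive change from P14 to P28 (1.14 ± 0.71, adjusted p = 0.308). The other two were P2ry12 and C1qc. Irf8, the interferon regulatory factor that pairs with PU.1, had 2.92, 64.9 and 0 at P28.

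Set per kilobase of exon, the order of the members changed with age. At P1 the highest means were those of Cd68 (316), Fcer1g (189), Pf4 (177), C1qb (168) and Sall1 (162), where SDs of 103 to 173 for Fcer1g, Pf4, C1qb and Cd68 spanned the gaps between neighbours in that order. At P28 the highest were P2ry12 (306 ± 42.7), Fcer1g (169 ± 186), Cd68 (150 ± 106), C1qc (134 ± 109) and Ctss (118 ± 92.6). P2ry12 had the smallest SD of these 5. As a percentage of the summed level per kilobase of the 9 homeostatic genes, P2ry12 averaged 9.04 in the P1 libraries (7.21 to 10.3), 19.6 in those of P7 (highest 22.5), 34.2 in those of P14 (29.4 to 40.1) and 58.5 in those of P28 (41.1 to 74.8), with no overlap between ages.

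Of the 3 border macrophage genes, 1 was called in any comparison (Mrc1, lower). Pf4 was also lower at P14 than at P7 without overlap, as were 24.8% of all genes. Its change in that step was not called (-1.10 ± 1.28, limma adjusted p = 0.617). Lyz2 did not fall in that step (0.02 ± 0.76). Mrc1, the mannose receptor CD206, had 332, 621 and 210 normalized counts at P1, 395, 440 and 402 at P7, 158, 106 and 205 at P14 and 86.2, 87.3 and 96.0 at P28. From P7 on, each age lay below the last without overlap. It fell by 1.44 ± 0.39 from P7 to P14 (limma adjusted p = 0.0158) and was 4.31-fold lower at P28 than at P1 (-1.96 ± 0.39, 0.00143). The fall from P14 to P28 did not pass (-0.74 ± 0.39, 0.215). The first call was lost without any 1 of the P7 libraries (0.0513 to 0.0608) or P14 replicate 2 (0.0724), while that between P1 and P28 held with each library left out (highest 0.00909) and in both count tests.

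Pf4, a chemokine of platelets and border macrophages, had 116, 243 and 22.7 at P1, 121, 56.3 and 79.8 at P7, 43.4, 28.6 and 42.4 at P14 and 0, 101 and 5.41 at P28. Its change from P1 to P28 was -3.34 ± 1.28 (adjusted p = 0.0566), which passed without P28 replicate 2 (0.00145) or P1 replicate 3 (0.0354). Lyz2, the lysozyme of myeloid cells, was not called and averaged 50.8, 117, 110 and 105, with 221 in P28 replicate 2. Its close copy Lyz1 could take some of its reads.

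MHC class II genes were highest at P14 for all 3 members. H2-Aa, the alpha chain of the I-A molecule, had 3.69, 4.29 and 7.57 normalized counts at P1 and 5.57, 19.6 and 26.4 at P7. It had 94.3, 106 and 316 at P14, above every library of any other age, and 0, 0 and 1.35 at P28. Outside P14 only 2 libraries reached 10, so the gene passed the filter through the age where it was high, and its changes are given as a description: 3.25 ± 0.83 from P7 to P14 (limma adjusted p = 0.0117) and -6.80 ± 0.83 from P14 to P28 (0.000319). With no filter on low values, over 20205 genes, the adjusted p were 0.0217 and 0.000872. In reads, 480 at P14 stood against 1 at P28, a ratio of normalized levels of 388 with a 95% counting interval of 69.3 to 15356. The first value lost its call without P7 replicate 1 (0.0742) or P14 replicate 3 (0.0517) and with a pseudocount of 0.1, and the second kept it with each library left out (highest 0.0027).

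Cd74, the invariant chain that escorts class II molecules, had 4.31, 88.6 and 3.03 normalized counts at P1, 17.5, 23.6 and 20.2 at P7, 177, 332 and 456 at P14 and 24.8, 3.54 and 1.35 at P28. It rose by 3.82 ± 1.12 from P7 to P14 (limma adjusted p = 0.0249), a 15.8-fold difference of the means, and then fell 32.5-fold (-5.53 ± 1.12, 0.00597). The rise lost its call without any 1 of the P7 libraries (0.0594 to 0.0776) or P14 replicate 2 (0.0759) or 3 (0.0871), and the fall held in all 12 such fits (highest 0.0310).

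H2-Ab1, the beta chain of I-A, had 26.5, 27.9 and 17.4 normalized counts at P1, 27.1, 34.0 and 34.9 at P7, 303, 143 and 187 at P14 and 0, 423 and 27.0 at P28. Every P14 library was above every P7 library, but the change of 2.62 ± 1.44 was not called (adjusted p = 0.236), and it passed without P28 replicate 1 (0.0276). The 423 in P28 replicate 2 was the highest value of the gene in any library, in a library where its alpha chain H2-Aa had no read. Without that library the change from P14 to P28 was -5.25 (adjusted p = 0.00614). In DESeq2 the change from P1 to P28 was 2.65 and called, whereas in limma it was -0.10 (adjusted p = 0.966).

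Markers of other antigen-presenting or blood cells were read beside the class II genes. Of 5 dendritic cell genes tested, 1 was called from P7 to P14 (20.9% of all genes), Cd209a, a lectin with 26.5, 32.8 and 141 normalized counts at P14, at most 1.85 at P1 and P7 and 0, 1.18 and 51.4 at P28 (5.22 ± 1.27, limma adjusted p = 0.00862). It too passed the filter only through its P14 values, and with no filter the adjusted p was 0.0103. The summed level of the 6 dendritic cell genes per kilobase was 8.05 to 13.4 for P1, 25.8 to 34.6 for P7, 29.0 to 110 for P14 and 11.5 to 47.1 for P28. That of 6 mast cell genes was 5.98 to 641 for P1, 52.9 to 156 for P7, 144 to 296 for P14 and 0.212 to 21.0 for P28, where 5 of the 6, among them Cpa3 and Mcpt4, had no read. That of 9 monocyte and neutrophil genes was 7.34 to 30.6 for P1, 8.57 to 294 for P7, 66.7 to 302 for P14 and 19.2 to 54.6 for P28. Of the 3 tested, only Ly6c2, a monocyte gene, was called from P7 to P14, as higher (4.04 ± 0.93, limma adjusted p = 0.00639). Ccr2 and Mpo were not called. Ly6c1, of the endothelial list, was called higher in the same step, with 274, 453 and 391 normalized counts at P14. For the border genes, 10 mural and fibroblast genes summed to 3123 to 12906 for P1, 3714 to 6154 for P7, 4575 to 6337 for P14 and 2611 to 3047 for P28. The part of these cells in the class II and border results was not tested.

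**Figure D4:**
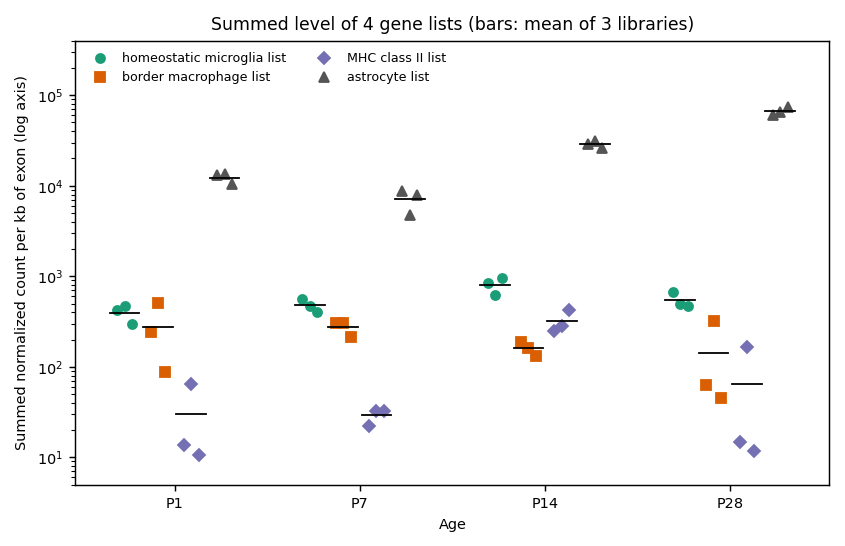
Summed normalized count per kilobase of exon (log axis) of the homeostatic microglia, border macrophage, MHC class II and astrocyte lists by age, with 1 point per library and a bar at the mean of 3. The MHC class II sums lie between 248 and 428 at P14 and between 10.6 and 167 at the other ages, while the astrocyte sums are highest at P28.

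Set beside each other per library, the summed level per kilobase of the class II genes was 0.0330 to 0.138 times that of the homeostatic genes at P1, 0.0399 to 0.0798 for P7 and 0.293 to 0.454 for P14. At P28 it was 0.0223 and 0.0247 in replicates 1 and 3 and 0.341 in replicate 2. The border genes stood at 0.291 to 1.06 times the homeostatic genes at P1, 0.520 to 0.635 for P7, 0.138 to 0.260 for P14 and 0.0942, 0.657 and 0.0956 at P28. P28 replicate 2 thus stood apart from the other P28 libraries in both ratios, with a border ratio within the range of P1 and a class II ratio within that of P14. That class II ratio rested on 1 gene, since H2-Ab1 had 165 normalized counts per kilobase in this library, Cd74 2.11 and H2-Aa 0. With Sall1 and P2ry12 left out of the homeostatic sum, the border ratio at P14 was 0.220 to 0.563, still below the 0.871 to 0.891 of P7. The homeostatic sum itself was 300.4 to 470.1 for P1, 408 to 563 for P7, 619 to 959 for P14 and 473 to 663 for P28.

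The spread between libraries of an age was wide for these genes. The median SD of log2(normalized count + 1) over the members was 0.81, 0.48, 0.68 and 1.54 at P1, P7, P14 and P28, beside 0.34, 0.25, 0.42 and 0.66 over all genes tested and 0.35, 0.47, 0.19 and 0.18 over the 10 astrocyte genes. At P28 the highest library was at least 10 times the lowest for 17 members (53.1%, against 24.7% of all genes). A gene with a library at 0 is counted here whatever its other values. That held for 8 of the members and for 2506 of the 15464 genes. Replicate 1 of P28 held most of the counts of Sall1 (760), C1qc (460), Cd53 (215) and C1qa (136). Replicate 2 held those of H2-Ab1 (423), Lyz2 (221), Itgam (143), Pf4 (101) and Irf8 (64.9). In replicate 3 Ctss (288), Cd68 (341) and C1qb (168) were highest while Tyrobp, Irf8 and P2ry13 had no read. Among the P1 libraries replicate 3 was the lowest for 27 of the 32 members, and its summed level of the members was 826 against 1674 and 2640 in the other P1 libraries.

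From P7 on, the call counts depended on single libraries. From P7 to P14 the number of members called was 1 without P7 replicate 1, 2 without P7 replicate 2 or 3 or P14 replicate 2 or 3, and 5 without P28 replicate 1. From P14 to P28 it was 3 without P14 replicate 1, 11 without P28 replicate 1 and 12 without P28 replicate 2, all lower in each fit. The share of all genes called in these fits is not reported here, so the counts cannot be read as particular to the members. Without P28 replicate 2 the falls over that step of Itgam (limma adjusted p = 0.00618), Irf8 (0.0173), Fcrls (0.0239) and Trem2 (0.0236) passed, and without P28 replicate 1 those of Cd53 (0.00103) and Sall1 (0.00375).

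Related genes were read from 5 further lists. Of 29 further microglia genes tested, 1 was called from P1 to P7 (C3ar1, a complement receptor, higher), 1 from P7 to P14 (higher), 4 from P14 to P28, all lower, and 7 between P1 and P28, with 2 higher. These are 3.45%, 3.45%, 13.8% and 24.1% of the list, against 7.70%, 20.9%, 14.4% and 34.6% of all genes. Among the 7 is Rac2, a GTPase of blood cells, which passed the filter only through its P1 and P7 values. P2ry6, a UDP receptor of phagocytosis, had 129, 34.9 and 6.52 normalized counts at P14 and no read in the P28 libraries (-5.03 ± 1.02, limma adjusted p = 0.00614). Hpgd, a prostaglandin-degrading enzyme, rose between P1 and P28 (4.16 ± 0.55, 5.44e-05). That rise was in the same comparison in which P2ry12 rose.

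Of 10 further border macrophage genes, Cd163 and Folr2 were called lower from P14 to P28 (-3.42 ± 0.90, limma adjusted p = 0.0219, and -3.30 ± 0.77, 0.0120), where 8.76% of all genes were called lower. Between P1 and P28, 5 were called (50%, against 34.6% of all genes), with 4 lower (20.0% of all genes). Among the 4 was Ms4a7, which passed the filter only through its P1 and P7 values. Cd38, the 1 called higher between P1 and P28, is an NAD-degrading enzyme that astrocytes also express. It went from 65.9 to 109 normalized counts at P7 to 1027 to 1156 at P14 (3.64 ± 0.25, limma adjusted p = 5.68e-07). Among 3 further class II genes tested, H2-Eb1, the I-E beta chain, had 54.0, 44.4 and 134 at P14, 2.39 to 6.20 for P7 and no read at P28, and its changes were 3.97 ± 0.82 (0.00320) and -6.12 ± 0.82 (0.000554). Like H2-Aa, it passed the filter only through its P14 values, as it was at most 9.29 in the other libraries, so that its course is no support for that of the members.

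In the phagocytic state list, Spp1 (osteopontin), which activated microglia secrete, had 116, 72.2 and 31.8 normalized counts at P1 and 958, 1810 and 644 at P7 (3.99 ± 0.70, limma adjusted p = 0.00274), and then fell (-2.76 ± 0.70, 0.0108). The chemokine gene Ccl4 fell from P14 to P28 (-5.03 ± 0.91, 0.00325) and Ccl3 did as well (-2.78 ± 0.69, 0.0165). Apoe and Axl, both also made by astrocytes, were lower at P7 than at P1 and rose at P14 and at P28. Of the genes for ligands of the receptors above, Csf1, a ligand of CSF1R, was lower at P7 (575 to 655) than at P1 (835 to 1109) and at P14 (1001 to 1145), by -0.66 ± 0.18 (0.0396) and then 0.80 ± 0.18 (0.00541). Cx3cl1, the ligand of CX3CR1, fell and rose in the same steps (-1.89 ± 0.53, 0.0410, and 2.30 ± 0.53, 0.00593).

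Genes outside the set whose pattern was most like the mean standardized profile of the 9 homeostatic genes over the 12 libraries were Il1a (Pearson r = 0.946), Gpr183 (0.922), Sh2b3 (0.903), Csf3r (0.901) and Necab3 (0.894), followed by 3632454L22Rik, E030011O05Rik, Ankrd37, Serp2 and Serpinb8 (0.876 to 0.889). The r is a description over libraries that share ages and scaling. Il1a, the gene of interleukin-1 alpha, averaged 13.7, 49.0, 82.0 and 4.78 normalized counts at P1, P7, P14 and P28. Ranked among all 15464 genes, 5 members outside the profile were in the first 100, Cd53 (0.930), Tyrobp (0.879), Fcer1g (0.820), Ptprc (0.813) and Cd74 (0.804). Of the 9 genes that make up the profile, and so correlate with themselves in part, 4 were in the first 100, whereas P2ry12 had r = 0.19.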

How the data were processed

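Per the submitters' processing notes, reads were mapped to mm10 with STAR (2.5.0a) and normalized with DESeq2 (1.30.1). Gene counts were built by the authors over UCSC transcripts in R, and the use of strand and of reads mapping to several places is not given in the sources used here. The table deposited by the authors holds signal values, that is, counts divided by a size factor for each library. Dividing by the value of 1 read gave whole reads for 100% of values (within 0.001).

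Time points were compared on log2(value + 1) in limma 3.58.1 (trend on mean expression, R 4.3.3) with all 12 libraries, 1 mean per age, no covariate and a filter of at least 10 in at least 3 libraries. The script was tested on simulated counts. Added count tests on the recovered reads called 1093, 3055, 1982 and 4962 genes in the 4 comparisons with edgeR 4.0.16 (15575 genes) and 1858, 3935, 3296 and 6045 with DESeq2 1.42.0. Other alternatives changed the scaling, filter, pseudocount, samples, threshold or libraries.

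Exon lengths and positions were taken from GENCODE M21 (GRCm38) by symbol. All 32 members are described. Of each related list the 2 most abundant genes per exon length and, in each step, the 2 called genes of largest change without overlap between libraries were eligible for naming, and of lists of other cells up to 2 abundant genes. Some eligible genes are not reported here. The members and lists were chosen with earlier results of these data known. With 3 libraries per age, no library was tested as an outlier.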

Additional observations from a re-analysis of the deposited data

How the results depend on the processing

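The number of members called changed with the processing. With at least 10 reads required in every library, which left 14 members to test, it was 2 from P1 to P7, 2 from P7 to P14, 1 from P14 to P28 and 3 between P1 and P28. With only the libraries of the 2 ages compared it was 4, 8, 3 and 3, beside 18.2%, 30.9%, 4.95% and 23.5% of all genes. At the unadjusted p and fold threshold of the study it was 2, 4, 15 and 12, where 14.2%, 26.2%, 24.1% and 39.3% of all genes passed. DESeq2 called 2, 5, 11 and 8 members in the 4 comparisons, beside 9.20%, 19.5%, 16.3% and 29.9% of the 20205 genes with a read. Library totals in place of size factors, which moved the median change of all genes from -0.09 to -0.34, -0.12 to -0.35 and -0.24 to -0.66 in the last 3 comparisons, gave 10 from P14 to P28 and 10 between P1 and P28 (15.5% and 42.0% of all genes). Library totals also moved the split of all genes called between P7 and P14 from 1676 higher and 1551 lower to 1203 and 2451, between P14 and P28 from 878 and 1354 to 456 and 1938, and between P1 and P28 from 2264 and 3086 to 1369 and 5133. With 1 library left out the count ranged from 1 to 1, 1 to 5, 3 to 12 and 4 to 9, with no share of all genes set beside it. The cause of these differences was not tested.

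The rises of P2ry12 kept their calls under every alternative run, and so did the falls of Fcgr3 and Cd74 from P14 to P28 wherever the gene was tested. Of 128 member values, 39 changed sign under some setting, and 0 of these were called with all 12 libraries in limma. The value of H2-Ab1 between P1 and P28 was 2.65 in DESeq2, called in the opposite direction. A fit with the replicate number as a block called 1, 4, 7 and 7 members, beside 7.52%, 20.4%, 13.8% and 34.5% of all genes. The numbers did not pair the libraries: over 18 same-number pairs the correlation of deviations from the age means was -0.03 to 0.14, with 1 over 0.1. Depth limits the low members, since a library at 0 allows 3 reads.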

Other observations

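Within P14, replicate 2 was the lowest library for 22 of the 32 members, and replicate 3 was the highest for 19. For the MHC class II genes the order differed, with Cd74 at 332 in replicate 2 and 177 in replicate 1. Lyve1, a receptor of lymphatic vessels and border macrophages, had 214 and 80.4 normalized counts in replicates 1 and 3 of P14 and 0 in replicate 2. H2-DMa, which loads peptide onto class II molecules, had 58.2 in P14 replicate 2 and 7.41 and 2.17 in the other two, unlike H2-Eb1, which had reads in all 3.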
